A study of Mus musculus with 30 samples.

Results

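The genes described here encode the MHC class II antigen-presentation pathway and its regulators in mouse CD4 T cells. They were chosen by symbol: Cd74, H2-Aa, H2-Ab1, H2-Eb1, H2-DMa, H2-DMb1, Ciita and Spib, 8 genes of 25865 named genes in the naive and activated RNA table and of 25860 in the forskolin table. All 8 were listed in both tables. The choice was made with the difference between PKA-knockout (KO) and control (WT) cells in naive and activated RNA already known, so that difference is described below without a p-value. The B cell genes Ms4a1 and Cd79a were followed beside them.

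MHC class II molecules carry peptides from the endosome to the cell surface, where CD4 T cells read them. H2-Aa and H2-Ab1 encode the I-A alpha and beta chains and H2-Eb1 the I-E beta chain. The invariant chain, encoded by Cd74, holds the groove closed until H2-DM, the product of H2-DMa and H2-DMb1, helps peptide to replace its last fragment. Class II genes share a promoter module of X and Y boxes bound by RFX proteins, CREB and NF-Y, on which the coactivator CIITA docks. Spib encodes an ETS-family transcription factor best known in B cells and plasmacytoid dendritic cells. B cells, dendritic cells and macrophages express the pathway at high levels, whereas mouse T cells are generally held to express little of it.

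RNA-seq was run in 3 conditions on CD4 T cells taken from the spleens and lymph nodes of KO and WT mice. Naive cells were enriched with a CD4 kit and sorted, activated cells had been stimulated through CD3 and CD28 for 3 days, and forskolin cells had rested in IL-7 for 3 days before forskolin at 1 ug/mL for 4 hours. Open chromatin was measured by ATAC-seq in KO and WT naive and activated cells. Each of the 10 groups held 3 libraries, and whether these are different mice is not in the labels. The p-values below therefore cover the spread among libraries alone, which may be technical. The labels name neither the PKA gene removed nor the promoter or cell type of any Cre. Prkaca, a catalytic subunit gene of PKA, had 10 to 46 counts in the 9 KO RNA libraries and 242 to 585 counts in the 9 WT ones, while Prkacb, the other main catalytic subunit gene, had 585 to 2252 counts in KO and 597 to 1990 counts in WT libraries. RNA libraries held 7665955 to 11950488 counts in named genes and ATAC libraries 18522373 to 25318916 counts in sites. RNA levels are given as CPM, the usual scaling of counts by library size, with edgeR's TMM factors applied separately in each table. Levels set beside each other across the forskolin table and the other one therefore rest on separate scalings.

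CD4 T cell markers were measured in every RNA library. The summed level of 8 CD4 T cell markers was 4932 to 5261 CPM in naive KO and 5067 to 5633 CPM in naive WT libraries, 2459 to 2504 CPM in activated KO and 2861 to 2967 CPM in activated WT libraries, and 2749 to 2877 CPM in forskolin KO and 3413 to 3489 CPM in forskolin WT libraries. Of these 8 markers, 0 passed edgeR's test between KO and WT in naive cells, where 0.242% of 11980 genes passed in either direction. With so small a share, 0 calls in a short list says little about that list. In activated KO cells 3 were lower and 0 higher, against 9.04% lower and 5.89% higher over all genes. In forskolin KO cells 6 were lower and 1 higher, against 18.8% lower and 19.7% higher. One library stood apart. Forskolin KO replicate 1 had 128 counts of H2-Aa against 14 and 6 in the other forskolin KO libraries, together with 14 counts of Lyz2 and 79 of Igkc. The members' forskolin tests are given with and without it. Without it, 6 of the 8 CD4 T cell markers were still lower and 1 higher in forskolin KO cells. Cd4 (log2 fold change -0.60 ± 0.04) and Trac (-0.50 ± 0.05) differed most, and Cd5 (0.33 ± 0.04) was the higher one.

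Promoter windows of 300 bases, from 250 bases before to 50 after the gene start, were found for 5 of the 8 genes in the RefSeq promoter table (GRCm38.p6), H2-DMa with 2 windows. The 4 shown were chosen because each overlaps a measured ATAC site and lets the class II module be read against a regulator's promoter. Capitals mark matches, on either strand, to CCAAT (the core of the Y box), AGNAAC (the core of the X1 box), TGACG (the core of a cyclic AMP response element, the kind of sequence in the X2 box) and TGACGTCA (the whole element, which contains that core on both strands).
H2-Aa: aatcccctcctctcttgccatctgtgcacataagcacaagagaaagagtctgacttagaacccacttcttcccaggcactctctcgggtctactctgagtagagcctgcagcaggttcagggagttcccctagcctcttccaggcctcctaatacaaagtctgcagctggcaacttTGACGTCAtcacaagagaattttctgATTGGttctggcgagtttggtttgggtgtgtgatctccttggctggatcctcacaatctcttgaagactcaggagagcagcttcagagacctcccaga
H2-Eb1: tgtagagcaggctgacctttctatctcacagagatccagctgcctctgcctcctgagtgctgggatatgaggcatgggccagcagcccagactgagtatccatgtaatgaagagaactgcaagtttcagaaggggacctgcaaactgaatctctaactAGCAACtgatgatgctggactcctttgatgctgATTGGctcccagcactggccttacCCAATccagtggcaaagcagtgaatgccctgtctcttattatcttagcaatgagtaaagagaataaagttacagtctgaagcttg
H2-DMb1: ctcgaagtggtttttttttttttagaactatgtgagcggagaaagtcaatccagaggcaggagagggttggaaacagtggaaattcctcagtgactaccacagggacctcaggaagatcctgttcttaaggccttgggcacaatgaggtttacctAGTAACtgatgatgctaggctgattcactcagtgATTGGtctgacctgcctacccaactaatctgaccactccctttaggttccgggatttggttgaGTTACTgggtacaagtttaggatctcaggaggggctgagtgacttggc
Spib: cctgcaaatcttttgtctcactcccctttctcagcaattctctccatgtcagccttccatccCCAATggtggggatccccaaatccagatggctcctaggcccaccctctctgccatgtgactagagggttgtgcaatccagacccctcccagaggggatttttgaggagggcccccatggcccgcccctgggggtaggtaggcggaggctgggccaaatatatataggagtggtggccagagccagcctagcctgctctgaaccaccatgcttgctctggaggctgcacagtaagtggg
The windows are chr17:34287774-34288073 on the minus strand for H2-Aa, chr17:34305617-34305916 on the plus strand for H2-Eb1, chr17:34152941-34153240 on the plus strand for H2-DMb1 and chr7:44532022-44532321 on the minus strand for Spib. The H2-Aa window held the whole cyclic AMP response element 74 to 67 bases before the gene start, followed by ATTGG, the CCAAT box on the other strand, 48 to 44 bases before it. Of all 32851 promoter windows of this length, 1.79% held the whole element. H2-Eb1 had AGCAAC 92 to 87 bases and H2-DMb1 had AGTAAC 95 to 90 bases before the start, with ATTGG 59 to 55 bases before the start in H2-Eb1 and 61 to 57 bases before it in H2-DMb1. The X1 core occurred in 48.1% of all windows and the Y core in 37.4%. The Spib window had a CCAAT match, 188 to 184 bases before the start, and none of the other motifs; TGACG was present in 20.8% of all windows. These matches describe letters and not binding.

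Cd74, the invariant chain gene (chromosome 18, 60803849 to 60812652), was higher in KO than in WT cells in all 3 conditions, and it changed far more with activation than with genotype. In naive cells it stood at 14.4, 13.3 and 24.7 CPM in KO libraries, against 3.35, 4.71 and 5.04 CPM in WT libraries. In activated cells it stood at 241.8, 236.1 and 256.9 CPM in KO and at 119.7, 109.6 and 92.1 CPM in WT libraries. Neither pair of groups overlapped. After forskolin Cd74 had 36.8, 12.4 and 7.37 CPM in KO libraries, against 5.64, 5.27 and 4.65 CPM in WT libraries. All 3 forskolin KO libraries lay above the WT ones, and replicate 1 stood far above replicates 2 and 3. The KO over WT log2 fold change was 1.9995 ± 0.26 (SE) in naive and 1.19 ± 0.16 in activated cells. Ordered by mean, the groups ran activated KO (244.9 ± 10.7 CPM, SD, n = 3), activated WT (107.1 ± 13.97), forskolin KO (18.8 ± 15.8), naive KO (17.45 ± 6.26), forskolin WT (5.18 ± 0.50) and naive WT (4.37 ± 0.90). Forskolin KO and naive KO overlapped, as did forskolin WT and naive WT.

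The 3 class II chain genes followed Cd74 in being higher in KO cells but sat at far fewer counts. H2-Aa had 18, 28 and 26 counts in naive KO and 4, 8 and 18 in naive WT libraries. In activated cells it had 106, 102 and 132 counts in KO and 22, 31 and 13 in WT libraries, which is 9.99 ± 2.004 CPM against 1.96 ± 0.83 CPM (SD, n = 3 each). The activated groups did not overlap, while one naive WT library reached the naive KO range on the CPM scale. H2-Ab1 had 26, 21 and 43 counts in naive KO and 2, 4 and 10 in naive WT libraries, a gap with no overlap. After activation it had 138, 94 and 106 counts in KO libraries and 128, 57 and 53 in WT libraries, and WT replicate 1 lay inside the KO range. H2-Eb1 had 22, 24 and 26 counts in naive KO against 3, 6 and 14 in naive WT libraries. In activated cells it had 67, 62 and 83 counts in KO against 39, 40 and 45 in WT libraries. H2-Eb1 did not overlap between genotypes in either state. The log2 fold changes were 1.30 ± 0.47 for H2-Aa, 2.52 ± 0.59 for H2-Ab1 and 1.68 ± 0.40 for H2-Eb1 in naive cells, and 2.34 ± 0.34, 0.48 ± 0.33 and 0.75 ± 0.27 for the same genes in activated cells. Without naive WT replicate 3, whose chain counts were the highest of its group, the naive values of H2-Ab1 and H2-Eb1 were 3.45 and 2.56.

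H2-DMa, the alpha chain of the peptide exchanger, was the member with the steadiest genotype difference. It stood at 34.9, 41.7 and 45.4 CPM in naive KO and at 28.0, 21.2 and 27.9 CPM in naive WT libraries. In activated cells it stood at 26.4, 25.8 and 27.2 CPM in KO and at 14.9, 12.4 and 10.5 CPM in WT libraries. After forskolin it stood at 27.6, 29.6 and 25.2 CPM in KO and at 16.1, 12.5 and 16.3 CPM in WT libraries. No WT library reached a KO library in any condition. The log2 fold change was 0.67 ± 0.13 in naive and 1.07 ± 0.14 in activated cells. H2-DMb1, the beta chain, was near the detection floor of 3 counts a library. It had 8, 7 and 8 counts in naive KO and 1, 6 and 0 in naive WT libraries, and 11, 5 and 14 counts in activated KO and 3, 4 and 2 in activated WT libraries. Its counts did not pass the filter on low counts in either table, and reads shared with its near-identical neighbour H2-DMb2 could not be told apart in the deposited counts.

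Ciita, the master coactivator of class II genes, was measured at 6 to 16 counts in naive KO and 1 to 5 in naive WT libraries. It had 18, 25 and 14 counts in activated KO and 3, 16 and 6 in activated WT libraries. The naive groups did not overlap and the activated ones did. The log2 fold change was 1.94 ± 0.67 in naive and 1.15 ± 0.50 in activated cells. The activated value was 2.03 without activated WT replicate 2. Spib was almost absent from naive cells, with 2, 5 and 11 counts in KO and 0, 0 and 4 in WT libraries. In activated cells it stood at 27.5, 33.7 and 36.3 CPM in KO libraries against 2.08, 7.28 and 6.10 CPM in WT libraries, or 32.5 ± 4.54 CPM against 5.15 ± 2.73 CPM (SD, n = 3 each). Activated KO cells thus held the only Spib levels above 10 CPM, and the activated log2 fold change was 2.66 ± 0.38.

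Of the 7 members that passed the filter on low counts in the naive and activated fit, 2 (Cd74 and H2-DMa) passed the test for higher RNA in naive KO cells, where 0.125% of 11980 genes did. In activated cells 4 of 7 (Cd74, H2-Aa, H2-DMa and Spib) passed for higher RNA, against 5.89% of all genes; with the replicate number as a block the count was 5, H2-Eb1 being added. None passed for lower RNA, against 0.117% of all genes in naive and 9.04% in activated cells. The naive count was 4 in DESeq2, 0 in edgeR without naive WT replicate 2 and 1 without naive KO replicate 2 or replicate 3. In each of the 2 states 6 of the 8 members had every KO library above every WT library in CPM, against 4.24% of tested genes in naive and 18.9% in activated cells. In both states the 6 include H2-DMb1, which did not pass the filter, while the share covers tested genes alone. These counts restate the difference on which the genes were chosen. The median log2 fold change of the 7 tested members was 1.94 in naive cells, against -0.01 over all tested genes, and 1.15 in activated cells, against 0.01. The change of the genotype difference with activation passed the test for 0 of 7 members, against 3.7% of all genes. Its values, activated minus naive, ranged from -2.04 ± 0.70 for H2-Ab1 to 1.04 ± 0.61 for H2-Aa. For this interaction 2 members had an unadjusted p under 0.05 in edgeR, 1 passed in DESeq2, and 1 (H2-Eb1) passed in edgeR without naive WT replicate 3. The interaction is made of the 2 genotype differences on which the genes were chosen, so its counts are a description too.

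**Figure D1:**
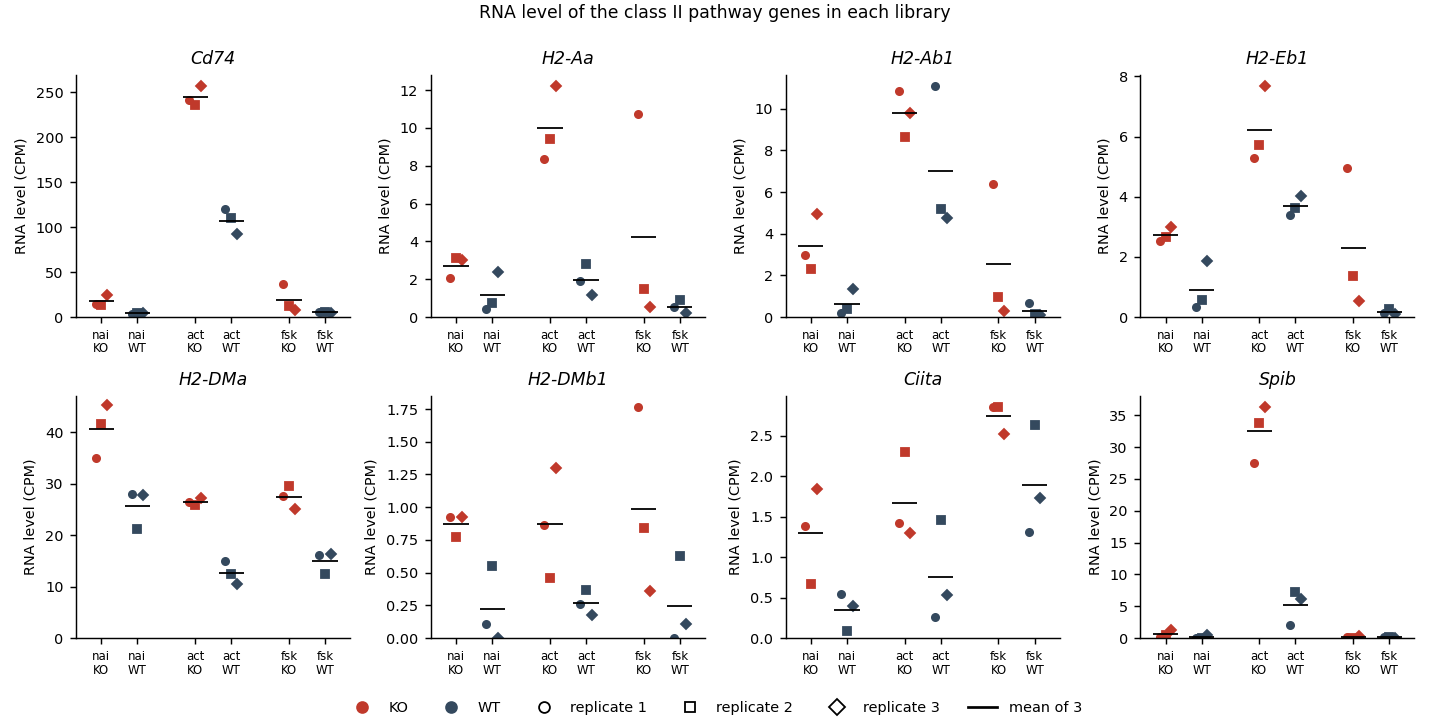
RNA level in CPM of the 8 genes in each library, KO left of WT in naive (nai), activated (act) and forskolin (fsk) cells; points are libraries, shapes are replicate numbers and bars are means of 3. Cd74 and Spib are highest in activated KO cells, H2-DMa is separated by genotype in every condition, and forskolin KO replicate 1 stands above the other forskolin libraries for Cd74 and the chains.

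Forskolin raises cyclic AMP and so activates PKA, and its libraries formed a table of their own that shares no sample with the contrasts above. Only 3 of the 8 members passed the filter there, and all 3 were tested over 11658 genes with edgeR's quasi-likelihood test and Benjamini-Hochberg adjustment. H2-DMa was higher in KO cells by 0.87 ± 0.11 on the log2 scale (adjusted p = 8.24e-08). Cd74 had a log2 fold change of 1.88 ± 0.79 that did not pass (adjusted p = 0.15). Ciita, with 34, 27 and 28 counts in KO and 10, 21 and 16 in WT libraries, had 0.53 ± 0.30 and did not pass (adjusted p = 0.165). So 1 of 3 tested members was higher, against 19.7% of all genes. Every KO library lay above every WT library for 3 of the 8 members, Cd74, H2-DMa and H2-Eb1, against 24.4% of tested genes. H2-Eb1 is not among the 3 tested members, so the count and the share cover unlike sets. Leaving out forskolin KO replicate 1 gave Cd74 a log2 fold change of 0.92 ± 0.21 (adjusted p = 0.000601), H2-DMa 0.86 ± 0.12 (adjusted p = 2.52e-07) and Ciita 0.50 ± 0.34 (adjusted p = 0.284). Cd74 also passed in DESeq2 with all libraries (1.87, adjusted p = 0.0283).

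The other 5 members had too few counts after forskolin to pass the filter. H2-Aa had 128, 14 and 6 counts in KO and 4, 7 and 2 in WT libraries. H2-Ab1 had 76, 9 and 3 counts in KO and 5, 1 and 1 in WT libraries. H2-Eb1 had 59, 13 and 6 counts in KO and 1, 2 and 1 in WT libraries. In each of these genes KO replicate 1 held most of the KO counts. H2-DMb1 had 21, 8 and 4 counts in KO and 0, 5 and 1 in WT libraries, and Spib had 3, 0 and 4 in KO and 1, 2 and 0 in WT libraries. Fitted without the filter, H2-Eb1 passed (3.74 ± 0.56, adjusted p = 5.3e-10), as did H2-DMb1 (1.99 ± 0.67, adjusted p = 0.0151). Without the filter and without KO replicate 1, an alternative added after the values were seen, H2-Eb1 had 2.44 ± 0.81 (adjusted p = 0.0135) and H2-DMb1 had 1.24 ± 0.85 and did not pass (adjusted p = 0.359). With 1 WT library left out, H2-Eb1 passed the filter but not the test (adjusted p = 0.201, 0.173 and 0.234 without WT replicates 1, 2 and 3). Without KO replicate 3, a fit that kept KO replicate 1, H2-Eb1 passed both (4.23 ± 0.65). Its WT libraries were all under the floor, so in these fits H2-Eb1 passed the filter through KO libraries alone. The last result is therefore a description, and no p-value is given for it. H2-Aa (adjusted p = 0.304), H2-Ab1 (adjusted p = 0.319) and Spib (adjusted p = 0.706) did not pass without the filter when all libraries were fitted.

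**Figure D2:**
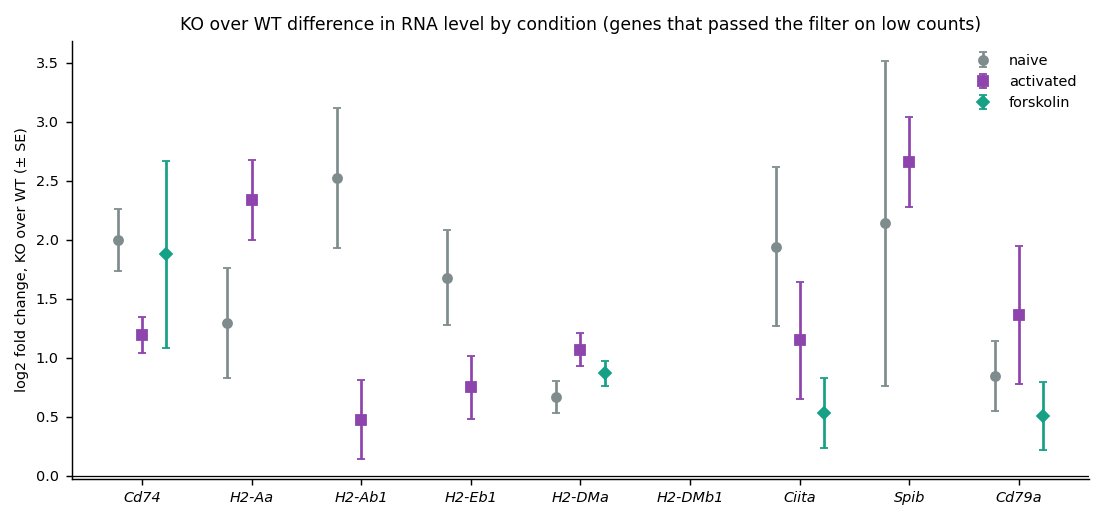
Log2 fold change of RNA level, KO over WT, with its standard error, for members and Cd79a that passed the filter on low counts in naive, activated and forskolin cells (3 libraries a group). All drawn values lie above 0, H2-DMb1 passed the filter in no condition, and the wide forskolin error of Cd74 goes with forskolin KO replicate 1.

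Activation itself was tested within each genotype, between libraries of the same genotype. In KO cells 5 of 7 tested members were higher after activation and 1 was lower, against 42.3% higher and 39.8% lower over all genes. In WT cells 4 of 7 were higher and 1 lower, against 42.3% and 40.3%. Cd74 rose by 3.81 ± 0.19 in KO cells (adjusted p = 1.01e-09) and by 4.62 ± 0.23 in WT cells (adjusted p = 1.01e-09) on the log2 scale. Spib had a change of 5.55 ± 0.54 in KO and 5.03 ± 0.88 in WT cells. It had 2 to 11 counts in naive KO and 0 to 4 in naive WT libraries. Spib thus passed the filter through its activated libraries, where it is high, so no p-value is given. It is counted among the higher members above as a description. H2-Ab1 rose by 1.52 ± 0.38 in KO (adjusted p = 0.00205) and by 3.56 ± 0.53 in WT cells (adjusted p = 2.54e-05). H2-Eb1 rose by 1.18 ± 0.29 in KO (adjusted p = 0.00112) and by 2.11 ± 0.38 in WT cells (adjusted p = 5.26e-05). The invariant chain and both of these beta chains therefore rose in both genotypes. For Spib every activated library lay above every naive one within each genotype. H2-Aa rose by 1.86 ± 0.34 in KO cells (adjusted p = 9.35e-05), and in WT cells its value was 0.82 ± 0.47 (adjusted p = 0.12), with overlapping libraries. The WT value of H2-Aa passed without naive WT replicate 3 (1.69, adjusted p = 0.00253) and without activated WT replicate 3 (1.09, adjusted p = 0.0458). H2-DMa fell by 0.62 in KO (adjusted p = 0.000288) and by 1.02 in WT cells (adjusted p = 3.09e-06). Ciita did not pass in KO (0.36 ± 0.47, adjusted p = 0.483) or in WT cells (1.15 ± 0.72, adjusted p = 0.146), the WT value passing without activated WT replicate 1 (1.57, adjusted p = 0.0394).

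Class II RNA in a sorted T cell library can also come from other cells that express these genes, and in bulk samples fewer cells of a type and less RNA per cell cannot be told apart. Ms4a1, which encodes CD20, had 3, 8 and 8 counts in naive KO and 1, 1 and 3 in naive WT libraries. It had 13, 8 and 15 counts in activated KO and 0, 2 and 1 in activated WT libraries. After forskolin it had 0, 1 and 0 counts in KO and 0 in each WT library. Ms4a1 was thus higher in KO cells without overlap after activation, overlapped in naive cells, and was at or under the floor after forskolin. Cd79a, which encodes a signalling chain of the B cell receptor, had 44, 27 and 24 counts in naive KO and 24, 17 and 14 in naive WT libraries. It had 7, 6 and 6 counts in activated KO and 3, 1 and 3 in activated WT libraries, and 38, 34 and 30 counts in forskolin KO and 21, 10 and 24 in forskolin WT libraries. In CPM its genotypes did not overlap in naive or activated cells, with log2 fold changes of 0.85 ± 0.30 and 1.36 ± 0.58, and overlapped after forskolin (0.51 ± 0.29, adjusted p = 0.17). On activation Cd79a fell by 2.68 in KO (adjusted p = 1.63e-06) and by 3.19 in WT cells (adjusted p = 6.04e-06), the opposite direction to Cd74. Most tested B cell markers did not share this fall. Of the 6 tested, Cd79a among them, 4 were higher and 2 lower after activation in each genotype. Over all genes 42.3% were higher and 39.8% lower in KO, and 42.3% and 40.3% in WT cells.

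Within a library, the ratio of Cd74 to Cd79a counts was 2.84 to 8.92 in naive KO and 1.29 to 3 in naive WT libraries. After activation it was 427.2 to 462.5 in KO and 342.3 to 1204 in WT libraries, the last resting on 1 count of Cd79a. After forskolin it was 2.73 to 11.5 in KO and 1.79 to 4.2 in WT libraries. The ratio of Cd74 to Cd79a changed with activation by far more than with genotype. All activated ratios rest on few Cd79a counts, 6 to 7 in KO and 1 to 3 in WT libraries. Since Cd79a itself fell with activation, the ratio moved with both genes. What the ratio says of B cell RNA was not tested. The ratio of Cd74 to the summed chain counts was 1.64 to 2.25 in naive KO and 0.905 to 3.44 in naive WT libraries, and 8.64 to 9.93 in activated KO and 7.31 to 9.41 in activated WT libraries. After forskolin it was 1.67 in KO replicate 1, 3.25 and 5.47 in the other KO libraries, and 4.2 to 10.8 in WT libraries.

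The full list of 18 B cell markers had summed levels of 337.9 to 350.2 CPM in naive KO and 337.1 to 350.5 CPM in naive WT libraries, 233.9 to 255.9 CPM in activated KO and 153.5 to 195.9 CPM in activated WT libraries, and 351.7 to 359.3 CPM in forskolin KO and 196.5 to 215.8 CPM in forskolin WT libraries. Most of this sum was Ighm, the IgM heavy chain gene, which averaged 316 ± 6.001 CPM in KO and 324.7 ± 5.99 CPM in WT naive cells (SD, n = 3 each). Without Ighm, Pou2af1 and Bank1, which were set aside after their levels were seen, the other 15 markers summed to 10.8 to 11.9 CPM in naive KO and 4.99 to 7.70 CPM in naive WT libraries. They summed to 8.89 to 11.9 CPM in activated KO and 3.55 to 5.29 CPM in activated WT libraries, and to 9.08 to 14.3 CPM in forskolin KO and 4.76 to 7.34 CPM in forskolin WT libraries. This sum was higher in KO libraries without overlap in each condition, though not every gene in it was: Cr2, chosen here after its values were seen, averaged 0.188 CPM in the KO and 0.425 CPM in the WT group of naive libraries. Their part in the class II difference was not tested. Of 6 tested B cell markers, 0 passed in naive cells in edgeR, against 0.242% of all genes, and 3 had an unadjusted p under 0.05. In activated cells 3 of 6 were higher in KO than in WT cells, against 5.89% of all genes. They were Ighm (0.60 ± 0.08, adjusted p = 2.48e-05), Bank1 (1.37 ± 0.23, adjusted p = 0.000497) and Cd79b (1.16 ± 0.32, adjusted p = 0.0206). In forskolin cells 2 of 6 were higher in KO, against 19.7% of all genes: Ighm (0.84 ± 0.04, adjusted p = 1.78e-16) and Bank1 (1.82 ± 0.33, adjusted p = 5.6e-05). Markers at 0 in every library of a group were Blk, Fcrla and Pax5 in activated KO, Bcl11a and Blk in activated WT, Bcl11a and Blk in forskolin KO, and Blk, Ms4a1 and Pax5 in forskolin WT cells; none was in naive cells.

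Among dendritic and myeloid markers, Cst3 and, in activated and forskolin cells, Zbtb46 were well above the floor, and the others had few counts in most libraries. The list of 16 summed to 24.2 to 31.2 CPM in naive KO and 22.2 to 34.0 CPM in naive WT libraries, 31.8 to 34.99 CPM in activated KO and 40.4 to 51.8 CPM in activated WT libraries, and 19.6 to 25.9 CPM in forskolin KO and 20.2 to 22.3 CPM in forskolin WT libraries, most of it Cst3, a widely expressed protease inhibitor gene. The 14 markers left without Cst3 and Zbtb46 summed to 4, 10 and 10 counts in naive KO and 9, 8 and 10 in naive WT libraries, and to 5, 5 and 7 counts in activated KO and 4, 2 and 5 in activated WT libraries. After forskolin they summed to 50, 2 and 15 counts in KO and 7, 9 and 5 in WT libraries. Only KO replicate 1 of the forskolin libraries stood clear of the rest, and its 3 chain genes summed to 263 counts against 36 and 15 in the other KO libraries. Of 2 tested genes, Cst3 was lower in activated KO cells (-0.49 ± 0.13, adjusted p = 0.0214), where 9.04% of all genes were lower. Neither Cst3 nor Zbtb46 passed in naive or forskolin cells, where 0.242% and 38.5% of all genes passed in either direction. Defining markers at 0 in all libraries included Clec9a and Siglech in both naive groups and in both activated groups, Lyz2, Cd14, C1qa and C1qb in both activated groups, and Lyz2, Cd14, C1qa, C1qb and Itgax in forskolin WT cells.

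**Figure D3:**
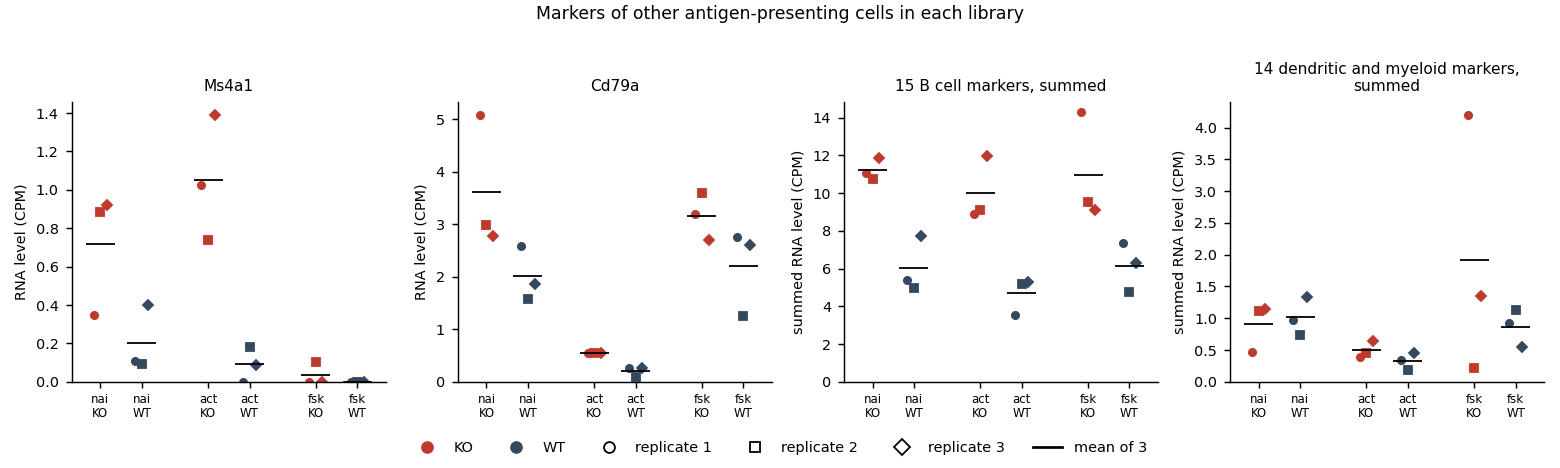
RNA level in CPM of Ms4a1 and Cd79a, and the summed level of 15 B cell markers (without Ighm, Pou2af1 and Bank1) and of 14 dendritic and myeloid markers (without Cst3 and Zbtb46), in each library, KO left of WT; bars are means of 3. The sum of the 15 B cell markers is higher in KO libraries in all 3 conditions, Cd79a is lowest in activated cells, and the myeloid sum is highest in forskolin KO replicate 1 at 4.2 CPM.

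Accessory genes of the class II pathway were followed from a separate list. Of the 16 genes listed for accessory class II molecules and peptide loading, 14 were in the tables. In naive cells 0 of 11 tested passed in edgeR, the highest in level among them being Ctss, the protease cathepsin S that trims the invariant chain (mean and SD of 3 libraries, 253.5 ± 31.4 CPM for KO against 235.7 ± 31.4 CPM for WT) and Ctsb; 2 had an unadjusted p under 0.05. In activated cells 2 of 11 were higher in KO than in WT cells, against 5.89% of all genes. They were H2-DMb2 (1.76 ± 0.38, adjusted p = 0.00399) and Ctss (0.35 ± 0.10, adjusted p = 0.0204). H2-DMb2 is a second H2-DM beta gene, with 29, 24 and 24 counts in KO and 14, 3 and 5 in WT libraries. In forskolin cells 6 of 10 were higher in KO than in WT cells and 1 was lower, against 19.7% higher and 18.8% lower over all genes. The smallest p-values there were those of Ctss (0.48 ± 0.04, adjusted p = 2.29e-10), Cd83 (1.52 ± 0.25, adjusted p = 1.11e-05), which stabilises surface class II, Lgmn (0.72 ± 0.14, adjusted p = 0.000113), another lysosomal protease, and Sppl2a (-0.19, adjusted p = 0.00104), the protease that clears the last invariant chain fragment. The list's median log2 fold change was 0.04 in naive, 0.07 in activated and 0.47 in forskolin cells, against -0.01, 0.01 and -0.00 over all genes. Without forskolin KO replicate 1, 5 were higher and 1 was lower in KO cells.

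The factors that bind the class II promoter module differed little between genotypes in activated cells. Of 12 tested, 1 was higher in activated KO cells, against 5.89% of all genes. Rfx5, a subunit of the RFX complex on the X1 box, had 20.5 ± 0.90 CPM in KO and 14.9 ± 0.61 CPM in WT cells (SD, n = 3 each). Its log2 fold change was 0.47 ± 0.11 (adjusted p = 0.00577). None of the 12 passed in naive cells in edgeR, against 0.242% of all genes, and 1 had an unadjusted p under 0.05. Ep300 and Smarca4 had the highest levels there. Creb1, a CREB gene and a substrate of PKA at the protein level, had 110.5 ± 1.29 CPM in activated KO and 111.8 ± 4.96 CPM in activated WT cells. In forskolin cells 4 of 12 were higher and 2 lower in KO than in WT cells, where 38.5% of all genes differed in either direction. Among them were Kat2b, a histone acetyltransferase gene (0.85 ± 0.05, adjusted p = 9.47e-12), Creb1 (0.30 ± 0.04, adjusted p = 1.64e-07), Nfyb, an NF-Y subunit (-0.25 ± 0.07, adjusted p = 0.00264) and Zxdc, a CIITA-binding factor gene (0.22 ± 0.06, adjusted p = 0.0073). The same numbers were higher and lower without forskolin KO replicate 1.

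Ciita is induced by interferon gamma, with IRF1 among the factors that act on it. Of 13 tested inducers and repressors of Ciita, 0 passed in naive cells in edgeR, against 0.242% of all genes, and 3 had an unadjusted p under 0.05. The 13 include Ifng, which had 0 counts in every naive library and could not differ there. Jak1 was among the highest in level. In activated cells 3 were higher and 6 lower in KO than in WT cells, against 5.89% and 9.04% of all genes. Irf2 (0.41 ± 0.08, adjusted p = 0.00133) and Irf1 (0.37 ± 0.08, adjusted p = 0.00364), both interferon regulatory factors, were higher. Irf4, a factor of activated lymphocytes, was lower (-0.73 ± 0.12, adjusted p = 0.000475). The interferon gamma gene Ifng (-1.32 ± 0.29, adjusted p = 0.0158) and its receptor chain gene Ifngr2 (-0.45 ± 0.10, adjusted p = 0.00374) were also lower. These 2 are named after their values were seen. In forskolin cells 6 of 12 were higher and 3 lower in KO than in WT cells, against the same 19.7% and 18.8% of all genes. Ifngr1, the ligand-binding receptor chain, was lower by most (-3.65 ± 0.04, adjusted p = 6.97e-32), with 93.2 ± 4.35 CPM in KO and 1169 ± 23.6 CPM in WT cells. Ifngr2 was also lower (-0.60 ± 0.05, adjusted p = 1.87e-10), while Irf1 was higher (0.44 ± 0.04, adjusted p = 5.52e-10). Both receptor chain genes were thus lower in KO than in WT forskolin cells, while Irf1 was higher. The series held no rested library without forskolin, so a change with forskolin itself was not measured. Without forskolin KO replicate 1, 5 were higher and 3 lower in KO cells.

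Class I presentation genes, which supply peptides to CD8 T cells through a separate route, served as a comparison. In naive cells 0 of 15 passed in edgeR, against 0.242% of all genes, and none had an unadjusted p under 0.05. The highest in level were B2m and H2-K1. In activated cells 2 of 15 were higher in KO than in WT cells, against 5.89% of all genes. They were the proteasome genes Psmb9 (0.38 ± 0.08, adjusted p = 0.00347) and Psme2 (0.26 ± 0.07, adjusted p = 0.0167). In forskolin cells 14 of 15 were higher in KO than in WT cells and 0 were lower, against 19.7% of all genes higher. The list's median log2 fold change there was 0.24. The smallest p-values were those of Nlrc5, the class I counterpart of Ciita (0.67 ± 0.04, adjusted p = 3.23e-14), Erap1, a peptide-trimming protease gene (0.52 ± 0.05, adjusted p = 8.68e-11), Psme1 (0.40 ± 0.04, adjusted p = 5.09e-10) and Psme2 (0.48 ± 0.05, adjusted p = 1.19e-08). Without forskolin KO replicate 1, 13 were higher in KO cells.

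The genes whose RNA pattern lay closest to Cd74 over the 12 naive and activated libraries, among 9658 genes with at least 5 CPM on average, were Nfkbia (Pearson r of log2 CPM 0.98), Timmdc1 (0.979), Kif7 (0.977), Ube2l6 (0.975) and Cep57 (0.975). For H2-Aa they were Batf (0.939), Bad (0.897), S100a10 (0.89), Polr2m (0.879) and Amz2 (0.875). The points share 4 groups and 1 scaling, and the values are a description of level order. Batf, an AP-1 factor gene of activated T cells, averaged 38.3 CPM in naive KO, 30.4 in naive WT, 58.8 in activated KO and 32.8 in activated WT cells, highest in activated KO cells. Around Cd74, 12 tested genes lay within 500 kb. In naive KO cells 1 was higher, against 0.125% of all genes: Iigp1 (1.16 ± 0.10, adjusted p = 8.85e-06), an interferon-induced GTPase gene. In activated KO cells 1 was higher and 2 lower, against 5.89% and 9.04% of all genes. In forskolin KO cells 5 were higher and 2 lower, where 38.5% of all genes differed in either direction. The nearest tested genes on either side, Rps14 and Tcof1, did not pass in naive or activated cells; Tcof1 was higher by 0.34 ± 0.04 after forskolin (adjusted p = 3.54e-09).

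Open chromatin is a readout that the choice of genes did not use. The deposited tables listed 52 ATAC sites within 10 kb of the members, with coordinates in mm10 as deposited, and raw counts per site were tested with edgeR over all sites of a state. In naive cells 3 of 43 tested sites were more open in KO cells and 0 were less open, against 0.816% of 74371 sites more open and 2.1% changed in either direction. In activated cells 23 of 52 were more open and 1 less open, against 15.1% more open, 20.1% less open and 35.2% changed in either direction of 106123 sites. The median log2 fold change over the members' sites was 0.12 in naive and 0.22 in activated cells, against -0.00 and 0.02 over all sites. Same-numbered ATAC libraries deviated together, and with the replicate number as a block 6 naive sites and 25 activated sites passed. The share of all sites that passed with the block was not recorded. The shares above are without the block and are no background for these counts. The authors' deposited FDR, which came with differences of unscaled log2 means, called 0 of the 52 sites in naive cells (0.0171% of 110808 sites) and 1 in activated cells (5.16%). The site called by the authors' deposited table lies in Pold1, 2 kb from Spib, at chr7:44534056-44534456 (deposited FDR 0.0295).

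Cd74 had 5 sites, of which 1 was more open in naive and 4 in activated KO cells. The strongest, chr18:60803523-60803923, covers the low-coordinate end of the Cd74 span. In naive cells it had 152, 166 and 257 counts in KO and 100, 107 and 93 in WT libraries (0.91 ± 0.14, adjusted p = 0.00226). In activated cells it had 1401, 1206 and 1350 counts in KO and 1189, 1094 and 935 in WT libraries (0.43 ± 0.05, adjusted p = 7.21e-06). The site was more open in KO cells in both states and its counts rose several-fold with activation, as did Cd74 RNA; the change with activation was not tested, the states being in separate tables. Inside the gene, chr18:60805697-60806097 was more open in activated KO cells (0.63 ± 0.11, adjusted p = 0.000448), as were chr18:60806959-60807683 (0.64 ± 0.17, adjusted p = 0.00977) and chr18:60811970-60812370 (0.48 ± 0.17, adjusted p = 0.0404). The last of these lost its call when any library but activated WT replicate 1 was left out.

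Spib had 7 sites, 4 of them more open in activated KO cells. The site over the Spib promoter window shown above, chr7:44531939-44532339, had 169, 152 and 160 counts in activated KO and 71, 104 and 74 in activated WT libraries (1.08 ± 0.14, adjusted p = 3.48e-05). In naive cells it had 6, 7 and 9 counts in KO and 5, 3 and 4 in WT libraries, too few to test. The promoter was thus nearly closed in naive cells of both genotypes. Beside it, chr7:44534056-44534456 had the largest difference of the 52 sites, with 100, 82 and 105 counts in activated KO and 25, 50 and 37 in activated WT libraries (1.48 ± 0.21, adjusted p = 6.36e-05). Within the gene, chr7:44526422-44526822 (0.93 ± 0.14, adjusted p = 0.000146) and chr7:44531218-44531618 (0.84 ± 0.14, adjusted p = 0.000212) were more open too. The site with the highest counts at Spib, chr7:44527890-44528290, did not pass (0.12 ± 0.09, adjusted p = 0.326).

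Ciita had 7 sites, 2 of them more open in activated KO cells. The highest, chr16:10489516-10489916 inside the gene, had 270, 285 and 335 counts in KO and 201, 236 and 197 in WT libraries (0.62 ± 0.11, adjusted p = 0.000333). In naive cells it had 26, 38 and 71 counts in KO and 29, 13 and 16 in WT libraries (1.18 ± 0.33, adjusted p = 0.0962), and it passed with the replicate block (adjusted p = 0.000167). Its neighbour chr16:10492590-10492990 had 62, 64 and 79 counts in activated KO and 54, 52 and 49 in activated WT libraries (0.53 ± 0.16, adjusted p = 0.0196), against 0 to 2 counts in every naive library. Its call was lost without activated WT replicate 2 or activated KO replicate 3.

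At the chain genes on chromosome 17 the promoters moved little. The site over the H2-Aa promoter with its whole cyclic AMP response element, chr17:34287721-34288121, had 515, 469 and 517 counts in activated KO and 501, 516 and 445 in activated WT libraries (0.17 ± 0.06, adjusted p = 0.0457), a call lost when any one library was left out. The H2-Eb1 promoter site, chr17:34305595-34305995, had 416, 419 and 476 counts in activated KO and 486, 484 and 401 in activated WT libraries (0.07 ± 0.07, adjusted p = 0.509), and in naive cells 0.18 ± 0.09 (adjusted p = 0.433). The H2-DMb1 promoter site, chr17:34152923-34153323, had 0.19 ± 0.22 in activated (adjusted p = 0.555) and 0.18 ± 0.15 in naive cells (adjusted p = 0.712). On the log2 scale, RNA of H2-Aa differed by 2.34 between activated KO and WT cells, while its promoter site differed by 0.17. Larger differences lay between and within the genes. In activated cells chr17:34296053-34296453 (0.40 ± 0.08, adjusted p = 0.00156) and chr17:34297618-34298018 (0.30 ± 0.10, adjusted p = 0.0243), between H2-Aa and H2-Eb1, were more open, as were chr17:34299411-34299811 (0.47 ± 0.11, adjusted p = 0.00325), chr17:34304767-34305167 (0.28 ± 0.07, adjusted p = 0.00755) and, inside H2-Eb1, chr17:34313408-34313808 (0.50 ± 0.10, adjusted p = 0.00134). The second of these, chr17:34297618-34298018, had 1, 4 and 2 counts in naive KO and 1, 0 and 2 in naive WT libraries, and 254, 256 and 249 counts in activated KO and 256, 208 and 210 in activated WT libraries, far more in activated than in naive libraries of both genotypes, a difference that was not tested. Its genotype call was lost without activated WT replicate 2, activated KO replicate 2 or activated KO replicate 3. Near H2-Ab1 the highest site, chr17:34262992-34263392, did not pass (0.16 ± 0.08, adjusted p = 0.132), and chr17:34261534-34261934 did (0.32 ± 0.09, adjusted p = 0.012), except without activated KO replicate 3.

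The H2-DM region held the other calls. Near H2-DMb1 and H2-DMb2, chr17:34144802-34145202 was more open in naive KO cells (0.50 ± 0.12, adjusted p = 0.0422) and in activated KO cells (0.68 ± 0.12, adjusted p = 0.00053). The site chr17:34164342-34164742 was more open in both states too, by 0.44 ± 0.10 in naive (adjusted p = 0.0356) and 0.43 ± 0.10 in activated cells (adjusted p = 0.00299). Both naive calls were lost when single libraries were left out, WT replicate 3 among them (adjusted p = 0.149 and 0.128). In activated cells chr17:34162724-34163124 was also more open (0.78 ± 0.14, adjusted p = 0.000513), as was chr17:34143010-34143410 in H2-DMb2 (0.22 ± 0.04, adjusted p = 0.00102). Within H2-DMa, chr17:34134366-34134766 was the single site that was less open in KO cells, with 351, 284 and 299 counts in activated KO and 649, 586 and 550 in activated WT libraries (-0.80 ± 0.08, adjusted p = 1.34e-06). In naive cells it had 20, 17 and 16 counts in KO and 7, 12 and 6 in WT libraries, and it passed there with the replicate block alone (1.10 ± 0.36, adjusted p = 0.0361). H2-DMa RNA was higher in KO cells in both states, whereas this site was less open in activated KO cells. The neighbouring chr17:34135323-34135723 (0.22 ± 0.04, adjusted p = 0.000275) and a site overlapping both H2-DMa and Brd2, chr17:34119310-34119710 (0.19 ± 0.03, adjusted p = 0.000131), were more open in activated KO cells by small amounts.

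**Figure D4:**
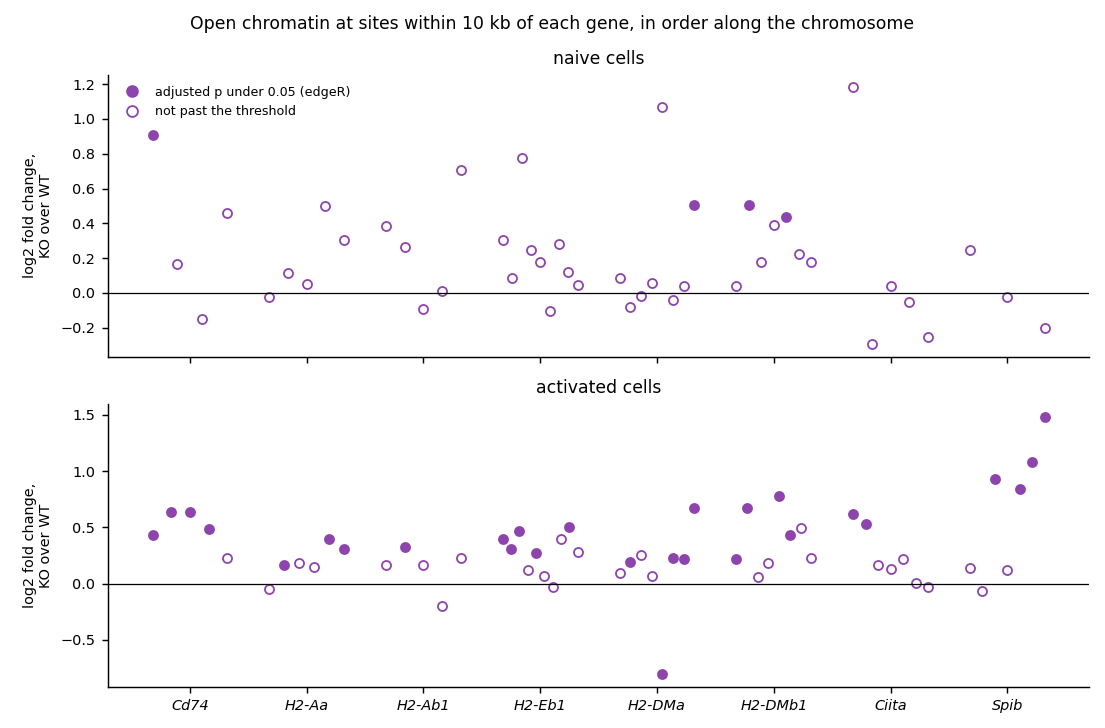
Log2 fold change of ATAC counts, KO over WT, at each site within 10 kb of the 8 genes that passed the filter on low counts, in naive (top) and activated (bottom) cells; filled points passed edgeR's test at an adjusted p under 0.05, sites near 2 genes are drawn at both, and order within a gene follows the chromosome. In activated cells 23 sites are higher, the Spib sites by most, and 1 within H2-DMa is lower by 0.80.

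**Figure D5:**
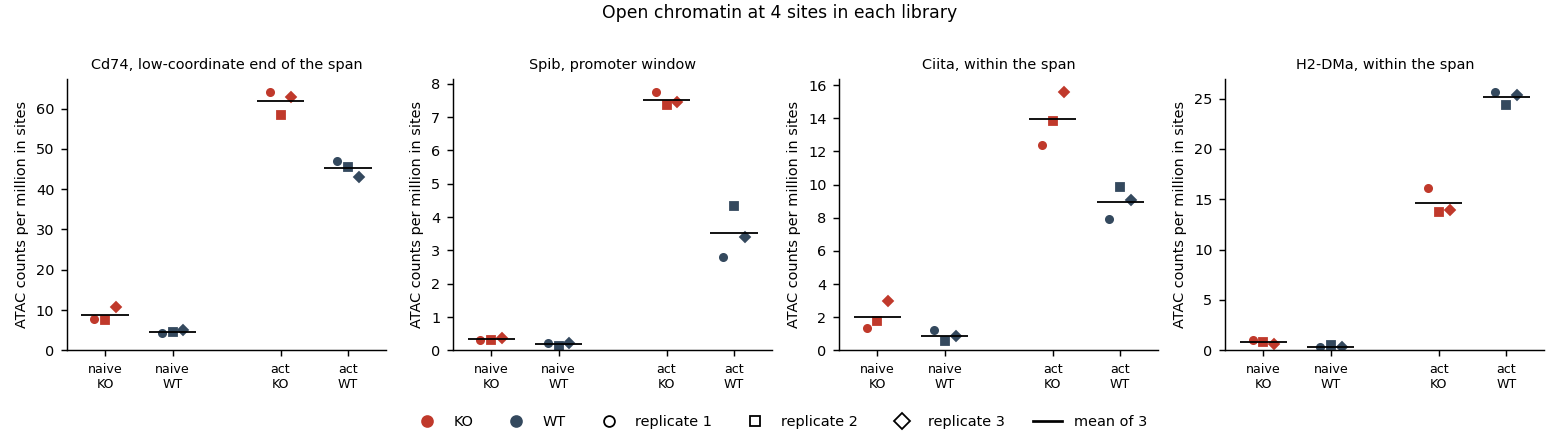
ATAC level in CPM (relative to all counts in sites) in each library, at the low-coordinate end of Cd74, the Spib promoter window, a site inside Ciita and a site inside H2-DMa, KO left of WT in naive and activated (act) cells; bars are means of 3. The first 3 sites are higher in activated KO than in activated WT libraries without overlap, and the H2-DMa site is lower.

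The B cell genes were read the same way, in sites added after their RNA values were seen. Ms4a1 had 2 sites. The one at its promoter end, chr19:11266021-11266421, had 65, 48 and 42 counts in activated KO and 29, 18 and 20 in activated WT libraries (1.34, adjusted p = 0.000458), against 7, 7 and 10 in naive KO and 3, 6 and 3 in naive WT libraries. It was more open in activated KO cells, with few counts. Cd79a had no site inside its span and 4 within 10 kb, of which 0 passed in naive cells and 2 were more open in activated KO cells, by 0.17 (adjusted p = 0.00227) and 0.25 (adjusted p = 0.00619). Ms4a1 and the members thus shared the direction of the difference in activated chromatin, and whether these reads came from the same cells was not tested.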

How the data were processed

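RNA-seq was read from 18 libraries and ATAC-seq from 12. The authors deposited raw read counts per gene in 2 RNA tables and raw counts per site in 2 ATAC tables, the ATAC tables with the authors' log2 concentrations, log2 fold, p-value and FDR. The deposited log2 fold is WT minus KO of unscaled means. The build is mm10, per the submitters' processing notes. Aligner and counter are not given in the sources used here. Rows naming no gene (up to 0.159% of counts) were left out.

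Counts were fitted with edgeR 4.0.16 (R 4.3.3; filterByExpr, TMM, robust quasi-likelihood test, Benjamini-Hochberg 0.05). The 12 naive and activated RNA libraries shared 1 fit, the forskolin libraries had their own, and so did each ATAC state. Standard errors are the fold change over the root of F. The procedure was tested on simulated data. Alternatives were DESeq2 1.42.0, other normalization and filters, a replicate block, leaving out each library, and the deposited FDR; 3 were added after the data were seen. The members and the gene lists were chosen with earlier results of these data known. All members were named. From each other list but the CD4 T cell markers, the genes past the test were named (the 4 smallest p where more passed). Where none passed, the 2 highest in level were named, and every ATAC site past the test could be named. Single values of some list genes are not reported here. Binomial or counting intervals are not given, since groups are compared over libraries; 3 counts is the floor a library allows.

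Labels give the groups the same replicate numbers. Same-numbered libraries deviated together in every pair for activated RNA (r 0.557, 0.28 and 0.236) and activation in KO (0.36, 0.18 and 0.126). The same held for naive ATAC (0.352, 0.254 and 0.182) and activated ATAC (0.343, 0.106 and 0.155). The main fits nevertheless had no term for replicate number in any comparison. Pairing entered only through the replicate block, one of the alternatives, and values are without it unless the block is named.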

Additional observations from a re-analysis of the deposited data

Results flagged for a closer look

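For 5 genes of the lists followed beside the class II genes, the KO over WT difference itself differed between activated and naive cells (edgeR interaction, Benjamini-Hochberg adjustment). Ighm had a difference of 0.64 ± 0.11 (activated minus naive, log2; adjusted p = 0.00138), with 0.60 in activated and -0.04 in naive cells. Irf2 had 0.44 ± 0.11 (adjusted p = 0.0301), with 0.41 in activated and -0.03 in naive cells. Irf4 had -1.21 ± 0.22 (adjusted p = 0.00567), with -0.73 in activated and 0.48 in naive cells. Of the T cell markers, Cd5 had -0.63 ± 0.09 (adjusted p = 0.000556), with -0.64 in activated and -0.02 in naive cells, and Cd28 had -0.54 ± 0.12 (adjusted p = 0.0134), with -0.52 in activated and 0.02 in naive cells.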

How the results depend on the processing

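Among the single results, 666 alternatives were labelled the same, 28 lost a call, 5 gained one, 18 moved by more than the spread and none was labelled reversed. For members in naive, activated and interaction comparisons, the same meant a fold change that moved by less than the spread among libraries. A call could be lost or gained there without entering these numbers. For counts from the gene lists, the same meant a change of at most 1.5 times. DESeq2 called 4 members in naive cells, 2 after forskolin and 1 for the interaction; without the filter on low counts 3 members passed after forskolin and 1 ATAC site in naive cells. The deposited FDR called 0 naive and 1 activated site, and sites overlapping a member's span gave 1 naive and 14 activated calls, fewer sites being counted. With the replicate block 6 naive ATAC sites passed, the share over all sites with the block not being recorded. Leaving out 1 library gave 0 to 2 member calls in naive, 4 to 5 in activated and 1 to 2 in forskolin cells, 5 to 6 for activation in WT, 6 to 6 for activation in KO, 0 to 1 for the interaction, and 1 to 2 naive and 19 to 24 activated ATAC sites. Where numbers do not pair by the rule, the block left the counts at 2 in naive, 1 in forskolin and 5 for activation in WT cells; same-numbered libraries correlated at 0.409, 0.00363 and 0.0402 in naive, 0.161, 0.0776 and 0.217 in forskolin and 0.267, 0.129 and 0.0967 in WT activation. The block changed no other count by over 1.5 times. The cause of these changes was not tested. Genes near 3 counts a library limit what can be detected.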
